A study of Mus musculus with 14 samples.

Results

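The genes described here encode the degradative machinery of the lysosome in mouse acute myeloid leukaemia cells: 25 acid hydrolases, 3 soluble proteins of the lysosome that are not hydrolases, 8 lysosomal membrane proteins and 8 subunits of the vacuolar proton pump. They were taken from a list of 44 gene symbols. All 44 of 44 were present in both deposited tables, among 13406 genes in the table of the doxycycline experiment and 14563 genes in the table of the transduction experiment. In this leukaemia, irradiated mice had received foetal liver cells carrying retroviral vectors, one with MLL-AF9 under a Tet-Off promoter together with a dsRED reporter, the other with NRASG12D and the Tet-Off activator. The cells came from spleens of sick C57/BL6 animals, so both vectors were shared by every group, controls included. Doxycycline was given in vitro for 4 days to shut MLL-AF9 off (n = 4) and was compared with untreated cells (n = 4). Other cells received an Id2-GFP (n = 3) or a control-GFP (n = 3) retrovirus and were sorted for GFP 2 days later. The labels name no sort for the doxycycline experiment, and no library had doxycycline without the MLL-AF9 switch, so effects of the drug and of MLL-AF9 loss cannot be told apart.

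Lysosomes break down macromolecules delivered by endocytosis, phagocytosis and autophagy. Hydrolases reach them mostly through mannose 6-phosphate receptors, membrane glycoproteins such as LAMP1 line the limiting membrane, and the vacuolar ATPase pumps protons into the lumen to keep it acidic. The transcription factors TFEB, TFE3 and MITF bind E-box motifs of the CLEAR type in promoters of many such genes. Macrophages are rich in lysosomes, and inherited loss of single members causes lysosomal storage diseases.

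Reads on the tabled genes numbered 17922644 to 25959766 per library in the doxycycline experiment and 14051150 to 14948487 in the transduction experiment. Mll1 and Mllt3, whose sequences the fusion transcript shares, were at 1998 to 6369 and 234.1 to 811.4 CPM (read counts normalised to library size) in untreated libraries and at 114.2 to 144.4 and 5.296 to 6.81 CPM after doxycycline. Id2 was at 25.8 to 51.5 CPM in control-GFP and at 952 to 1631 CPM in Id2-GFP libraries. Control-GFP replicate 3 stood apart from the other transduced libraries. On the leading principal component (57.8% of variance) its score was 87.8 against -41.6 to 23.1 in the others.

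After 4 days of doxycycline, 35 of the 44 genes rose, none fell and 9 did not pass the test. The threshold was an adjusted p of 0.05 in limma's moderated test of log2 CPM values, adjusted over all genes of the table. In the same comparison 65.1% of all genes passed, made up of 31.3% that rose and 33.8% that fell, or 4198 and 4535 genes. With libraries scaled by their totals, 2702 genes rose and 6912 fell, the median of all genes moved to -0.27, and 33 of the 44 genes rose and Manba fell. With quantile normalization 32 of the 44 rose. The median log2 change was 0.75 over the 44 genes and -0.03 over all genes. A rise of at least 2-fold was found for 16 of the 44 genes and for 10.1% of all genes. The former count depended on the scaling. With library totals, the log2 changes of Lamp1 (0.95), Scarb2 (0.95), Npc2 (0.91), Acp2 (0.85), Atp6v1a (0.84), Atp6v0a1 (0.82) and Ids (0.77) were below 2-fold. With quantile normalization, Ids (0.95), Npc2 (0.95), Atp6v0a1 (0.94), Atp6v1a (0.89), Grn (0.83) and Lamp1 (0.75) were below 2-fold. The share of all genes at 2-fold was not counted under either scaling. The untreated and doxycycline values did not overlap, with doxycycline higher, for 34 of the 44 genes, against 28.9% of all genes. None of the 44 was separate and lower, against 31.1% of all genes. When the pair of each library was entered as a block, 41 of the 44 genes rose, against 33.6% of all genes, and 69.6% of all genes passed in either direction.

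The listed members of the classes differed in how far they moved. Of the 25 hydrolases, 18 rose, 4 of them at least 2-fold, with a median log2 change of 0.54. Among those 4, Acp2 (0.85) and Ids (0.77) were below 2-fold with library totals, and Ids (0.95) also with quantile normalization. All 3 soluble proteins without hydrolase activity rose, with a median of 1.28. All 8 membrane proteins rose, with a median of 1.08 and with Laptm5 turning under quantile normalization. Of the pump subunits, 6 of 8 rose, with a median of 1.07. These are descriptions of each class, and no test compared the classes with each other.

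**Figure D1:**
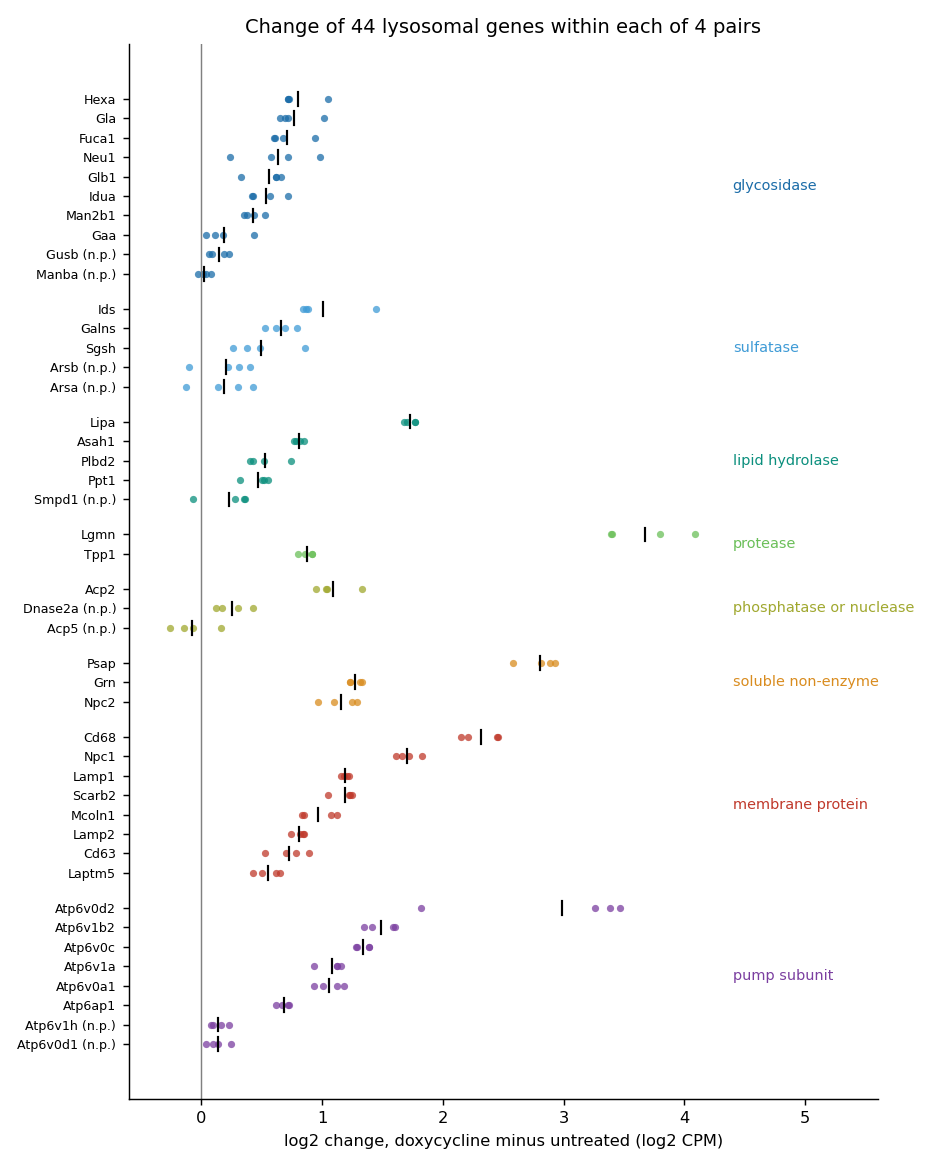
Log2 change of each of the 44 genes after doxycycline within each of the 4 pairs (points, horizontal axis in log2 CPM), with the mean as a black bar, grouped by class; n.p. marks the 9 genes that did not pass the test. Lgmn, Atp6v0d2, Psap and Cd68 lie farthest right, while Manba, Gusb and Acp5 lie at or near 0.

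Together the 44 genes took 1.07%, 1.03%, 1.01% and 1.16% of the reads on tabled genes in untreated replicates 1 to 4. After doxycycline they took 2.05%, 2.101%, 1.88% and 2.28%. All 4 doxycycline libraries were thus above all 4 untreated ones. The soluble proteins Psap, Npc2 and Grn made the widest step, from 0.195% ± 0.0204 to 0.703% ± 0.108 (mean ± SD, n = 4 each). Psap made the largest part of it, with means of 729 CPM in untreated libraries and 5129 CPM after doxycycline. Npc2 went from 307 to 682 CPM and Grn from 760 to 1838 CPM. The hydrolases went from 0.366% ± 0.0293 to 0.521% ± 0.0325, the membrane proteins from 0.345% ± 0.0133 to 0.578% ± 0.0209, and the pump subunits from 0.162% ± 0.0118 to 0.276% ± 0.0149. Shares are of raw reads, without the scaling factor that the log2 CPM values carry.

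**Figure D2:**
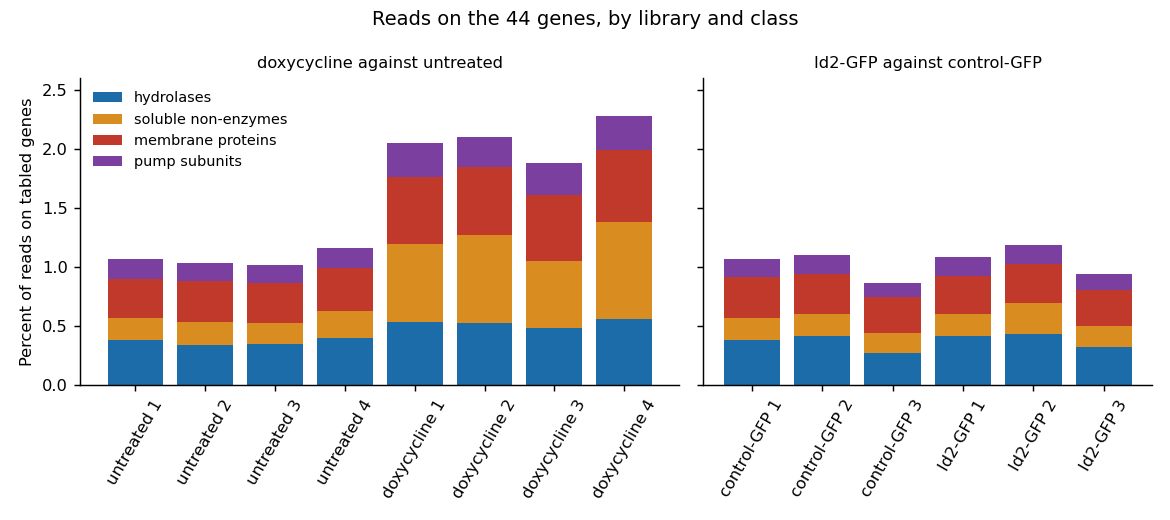
Percent of the reads on tabled genes that fell on the 44 genes (vertical axis), for each library, stacked by class. The 4 doxycycline libraries reach 1.88% to 2.28% against 1.01% to 1.16% in untreated cells, and the transduced libraries show no such step.

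Bulk libraries mix cells, so a change in the number of cells of a type and a change in RNA per cell cannot be told apart. Markers of monocytes and macrophages moved in the same direction as the lysosomal genes: 9 of 10 rose. Over all genes, 31.3% rose and 33.8% fell. The summed level of the 10 markers went from 1593 to 1928 CPM in untreated libraries to 4973 to 5640 CPM after doxycycline. Itgam was the largest part of it, at a mean of 1003 CPM in untreated libraries and 2844 CPM after doxycycline. Neutrophil markers were mixed, with 5 of 8 higher, 2 lower and a sum of 1228 to 2596 CPM against 4068 to 9043 CPM. Of 4 blast markers, 3 fell and Cd93 rose, from a mean of 463 to 1034 CPM. The sum of the 4 was 963 to 1091 CPM in untreated libraries and 1161 to 1332 CPM after doxycycline. Of 6 erythroid markers none was in the table. Of 6 B cell and 6 T and NK cell markers 1 each was in the table, Cd79b, which did not pass, and Lck, at 0.488 to 1.06 CPM in untreated libraries and 0.0216 to 0.320 CPM after doxycycline. Of 4 megakaryocyte markers 3 were in the table, of which Gp9 and Itga2b fell and Pf4 rose. Pecam1 and Pdgfrb, the 2 of 6 endothelial and stromal markers in the table, fell. Lck and Gp9 exceeded 1 CPM only in untreated libraries, and the neutrophil marker Ly6g only after doxycycline. Their directions were thus fixed by their presence in the table. The part of these cell types in the rise of the lysosomal genes was not tested.

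The promoters of the members were searched for the E-box CACGTG and for TCACGTGA, the core of the CLEAR element, in RefSeq windows on GRCm38.p6 that reach from 250 bases before to 50 after a gene's start. Both motifs are palindromes, so a match counts for both strands, and every TCACGTGA holds a CACGTG. Of the 44 members, 37 matched the RefSeq table by symbol, with 43 windows. CACGTG was in 10 of these windows, or 23.3%, against 9.93% of windows of all genes in the doxycycline table and 7.15% of all 32851 windows. TCACGTGA was in 4, or 9.3%, against 1.88% and 0.974%. The 4 genes with the longer motif, Gla, Mcoln1, Atp6v0d1 and Atp6v1a, are printed because they show it at an enzyme, a channel and both sectors of the pump. Capitals mark TCACGTGA, and each sequence runs 5′ to 3′ on the gene's strand.
Gla, chrX:134601157-134601255, minus strand: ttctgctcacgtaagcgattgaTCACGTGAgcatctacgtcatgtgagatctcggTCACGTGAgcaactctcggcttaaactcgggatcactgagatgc
Mcoln1, chr8:3500437-3500486, plus strand: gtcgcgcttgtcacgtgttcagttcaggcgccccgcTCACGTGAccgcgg
Atp6v0d1, chr8:105566035-105566104, minus strand: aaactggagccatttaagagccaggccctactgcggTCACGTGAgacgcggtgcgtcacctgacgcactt
Atp6v1a, chr16:44139373-44139402, minus strand: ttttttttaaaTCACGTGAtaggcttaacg
The printed stretch of Gla holds 2 copies of the motif and the other stretches 1 each. Copies elsewhere in the windows were not counted. Of these 4 genes 3 rose after doxycycline and Atp6v0d1 did not pass without the block. The median change was 0.87 over the 4 genes and 0.71 over the 33 matched members without the motif, of which 26 rose. With CACGTG the median was 0.67 over 10 genes, and without it 0.73 over 27. A match is a description of letters in a window and not of binding.

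Glycosidases trim sugars from glycolipids, glycoproteins and glycosaminoglycans, and 8 of 10 rose, each by less than 2-fold, of which Gaa and Man2b1 did not pass with library totals or quantile normalization. Hexa, the alpha subunit of beta-hexosaminidase, which acts on GM2 ganglioside, stood at 425, 338, 367 and 425 CPM in untreated replicates 1 to 4 and at 700, 698, 609 and 699 CPM after doxycycline. The groups did not overlap, and the log2 change was 0.80 ± 0.09 (SE; adjusted p = 2.98e-05). Of the exon bases of Hexa 12.8% are shared with Tmem202 on the other strand. Gla, alpha-galactosidase A, was at 69.0, 50.4, 65.5 and 75.9 CPM in untreated libraries and at 114, 102, 105 and 119 CPM after doxycycline. Its change was 0.77 ± 0.11 (adjusted p = 0.000254), also without overlap. Fuca1, alpha-fucosidase, went from 85.4, 70.8, 83.9 and 84.2 CPM to 129, 136, 128 and 135 CPM, a change of 0.71 ± 0.06 (adjusted p = 9.64e-06). Untreated replicate 2 was the lowest library for all 3 enzymes, as it was for 25 of the 44 genes. Doxycycline replicate 4 was the highest library for 28 of the 44.

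Neu1, a sialidase, rose by 0.63 ± 0.13 on the log2 scale. Glb1, beta-galactosidase, rose by 0.56 ± 0.06 and Idua, alpha-iduronidase, by 0.54 ± 0.09. Man2b1, alpha-mannosidase, rose by 0.43 ± 0.11, a call that did not hold when libraries were scaled by their totals (0.19) or by quantiles (0.16). Gaa, acid alpha-glucosidase of glycogen, rose by 0.19 ± 0.07 (adjusted p = 0.0415). Its highest untreated library, at 132 CPM, was above its lowest doxycycline library, at 131 CPM, and scaling by library totals turned its change to -0.05. Gaa also missed the threshold without untreated replicate 2 or 4, and without doxycycline replicate 1, 2 or 4, with changes of 0.12 to 0.20.

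The remaining glycosidases did not pass. Gusb, beta-glucuronidase, was at 491, 422, 445 and 506 CPM in untreated libraries and at 522, 496, 463 and 578 CPM after doxycycline. It was higher in each of the 4 pairs, by 0.06 to 0.23, while the groups overlapped. Its adjusted p was 0.152, and 0.0276 with the block. Manba, beta-mannosidase, was at 105, 93.8, 98.8 and 113 CPM in untreated libraries and at 106, 99.0, 96.9 and 116 CPM after doxycycline. The groups lay on top of each other, with a change of 0.03 ± 0.07 (adjusted p = 0.775).

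**Figure D3:**
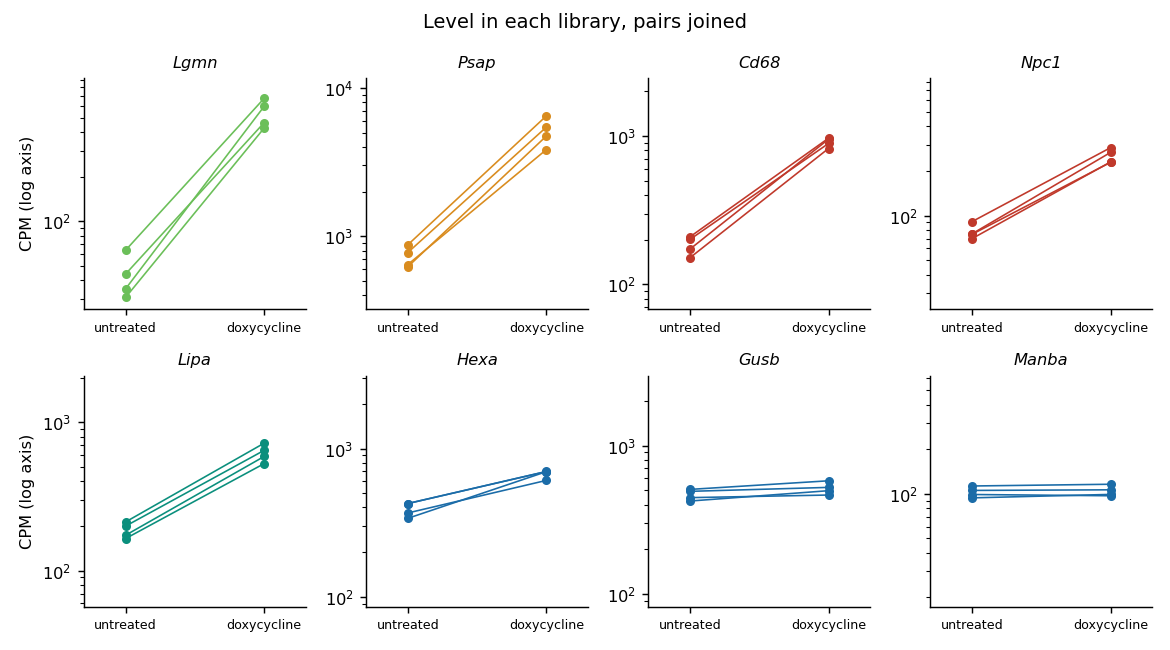
CPM of 8 genes in each of the 4 untreated and 4 doxycycline libraries (vertical log axis, spanning the same ratio in every panel), with lines joining libraries of a pair. Lgmn, Psap, Cd68, Npc1 and Lipa separate fully, Hexa separates by a smaller step, and Gusb and Manba overlap.

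Sulfatases remove sulfate groups, most of them from glycosaminoglycans, and 3 of 5 rose. Ids, iduronate sulfatase, was at 7.81, 11.6, 7.48 and 7.51 CPM in untreated libraries and at 14.3, 20.7, 13.7 and 20.5 CPM after doxycycline. It is a low gene, with 148 to 267 reads per untreated library, and its change was 1.01 ± 0.19 (adjusted p = 0.00107). Galns, which acts on keratan sulfate, was at 111, 93.8, 110.0 and 126 CPM against 179, 162, 169 and 181 CPM. Galns rose by 0.66 ± 0.08 (adjusted p = 8.31e-05), and the groups did not overlap. Sgsh, heparan N-sulfatase, was at 42.6, 43.5, 43.9 and 37.6 CPM against 59.9, 56.6, 52.4 and 68.1 CPM. Sgsh rose by 0.50 ± 0.08, and its exons share 21.6% of their bases with Card14 on the other strand.

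Arsa and Arsb, arylsulfatases that act on sulfatide and on dermatan sulfate, did not pass. Arsa was at 59.2, 53.0, 59.9 and 68.0 CPM in untreated libraries and at 72.9, 71.4, 65.8 and 62.1 CPM after doxycycline. It was higher in pairs 1 to 3 and lower, by 0.13, in pair 4 (adjusted p = 0.0715). Arsb was at 67.6, 68.4, 60.3 and 66.7 CPM against 83.5, 79.5, 79.7 and 62.2 CPM, and again pair 4 ran the other way. Without doxycycline replicate 4, Arsa changed by 0.23 (adjusted p = 0.0408) and Arsb by 0.30 (adjusted p = 0.00162). Arsa also passed without untreated replicate 4, at 0.25. With the block Arsb passed (adjusted p = 0.0427) and Arsa did not (0.0847). Strand was not stated. Of the exon bases of Arsb 32.3% overlap Gm26527 and 7.67% overlap Gm47210, and 18.8% of those of Arsa overlap C230037L18Rik. These genes lie on the other strand, and their reads cannot be told apart from those of Arsb and Arsa.

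Of the lipid hydrolases 4 of 5 rose, led by Lipa. Lipa, the acid lipase that frees cholesterol from its esters, was at 199.6, 173, 165 and 213 CPM in untreated libraries and at 648, 589, 527 and 724 CPM after doxycycline. Every doxycycline library was above every untreated one, a 3.31-fold rise on the log2 scale of 1.73 ± 0.11 (adjusted p = 1.39e-06), and the 4 pairs lay within 1.68 to 1.77. Asah1, acid ceramidase, was at 223, 209, 209.7 and 241 CPM against 403, 369, 358 and 415 CPM, a change of 0.81 ± 0.07. Plbd2, a phospholipase B-like protein, was at 75.4, 64.9, 73.2 and 77.4 CPM against 102, 109, 96.7 and 111 CPM, a change of 0.53 ± 0.07. Ppt1, which removes palmitate from proteins, rose by 0.47 ± 0.06. The groups of Asah1 and Plbd2 did not overlap.

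Smpd1, acid sphingomyelinase, did not pass. It was at 26.3, 32.3, 23.9 and 29.0 CPM in untreated libraries and at 32.1, 41.3, 30.3 and 27.6 CPM after doxycycline. The groups overlapped, pair 4 was the only pair in which it was lower, and its adjusted p was 0.152, or 0.0302 with the block.

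Both proteases rose, and Lgmn rose more than any other of the 44 genes. Lgmn, legumain, an asparaginyl endopeptidase that also matures cathepsins, lies at chr12:102394084-102439813 on GRCm38. It was at 35.1, 44.1, 30.7 and 63.9 CPM in untreated libraries and at 598, 464, 426 and 677 CPM after doxycycline. The lowest doxycycline library was far above the highest untreated one. The log2 change was 3.67 ± 0.23, or 12.7-fold (adjusted p = 1.14e-06), and ran from 3.39 to 4.09 over the pairs. Tpp1, tripeptidyl peptidase, was at 211, 183, 169.9 and 229.9 CPM against 381, 346, 322 and 399 CPM, a change of 0.87 ± 0.10 without overlap.

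Of the phosphatases and nuclease, Acp2 alone passed. Acp2, lysosomal acid phosphatase, was at 41.0, 34.6, 34.9 and 40.9 CPM in untreated libraries and at 79.4, 70.7, 72.1 and 103 CPM after doxycycline. It rose by 1.09 ± 0.12 (adjusted p = 3.51e-05), and 12.6% of its exon bases overlap Ddb2 on the other strand. Acp5, tartrate-resistant acid phosphatase, known from osteoclasts, was at 8.27, 4.35, 4.66 and 4.63 CPM against 6.91, 3.96, 4.44 and 5.17 CPM. The groups overlapped, and its change of -0.08 ± 0.24 (adjusted p = 0.794) was the only negative value among the 44. Dnase2a, the acid DNase, was at 115, 85.9, 88.7 and 104 CPM against 125, 116, 99.6 and 128 CPM. It was higher in every pair, with an adjusted p of 0.065, or 0.00413 with the block. It also passed without untreated replicate 1, at 0.33, and without doxycycline replicate 3, at 0.33, and 29.99% of its exon bases overlap Mast1 on the other strand.

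The soluble proteins that are not hydrolases held the most abundant transcript of the set after doxycycline. Psap, at chr10:60277627-60302597 on GRCm38, encodes prosaposin, the precursor of the saposins that present sphingolipids to their hydrolases. It was at 622, 776, 643 and 874 CPM in untreated libraries and at 4742, 5449, 3842 and 6482 CPM after doxycycline. All doxycycline libraries were several times above all untreated ones, by 2.80 ± 0.17 on the log2 scale, or 6.98-fold (adjusted p = 1.04e-06). Levels were also taken per kilobase, over all annotated exons of a gene. On this scale Psap had 266 ± 43.2 CPM in untreated cells, behind Laptm5 (376) and Lamp1 (308). After doxycycline it had 1869 ± 407 CPM, ahead of Cd68 (722) and Lamp1 (702). The lengths of the transcripts expressed were not measured, so ranks between genes are approximate.

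Grn, progranulin, was at 759, 689, 704 and 887 CPM in untreated libraries and at 1907, 1705, 1649.9 and 2088 CPM after doxycycline. It rose by 1.28 ± 0.10 (adjusted p = 4.97e-06), and by 0.83 with quantile normalization. Npc2, which hands cholesterol to NPC1 in the lysosomal lumen, was at 294, 299, 298 and 337 CPM against 697, 729, 639.9 and 663 CPM. It rose by 1.15 ± 0.06 (adjusted p = 6.59e-07). Neither gene's groups overlapped.

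Each membrane protein passed and had groups that did not overlap, though Laptm5 turned under quantile normalization. Cd68, macrosialin, a LAMP-family glycoprotein of macrophages, lies at chr11:69664213-69666153 on GRCm38. It was at 172, 200.4, 151 and 209 CPM in untreated libraries and at 952, 890.3, 823 and 966 CPM after doxycycline. The rise was 2.32 ± 0.10, or 4.99-fold (adjusted p = 3.26e-07), the smallest adjusted p of the 44 genes. Npc1, the cholesterol exporter of the lysosomal membrane, was at 75.3, 74.8, 69.9 and 91.1 CPM against 267, 229, 230.3 and 288 CPM, a rise of 1.70 ± 0.10. Npc1, Npc2 and Lipa, whose products act in turn to release and export cholesterol, rose 3.26-, 2.22- and 3.31-fold.

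Lamp1, a major glycoprotein of the limiting membrane, was at 832, 781, 753 and 929 CPM in untreated libraries and at 1921, 1814, 1704 and 2073 CPM after doxycycline, a rise of 1.19 ± 0.09. Scarb2, the receptor that carries glucocerebrosidase to lysosomes, was close behind at 1.19 ± 0.08. Of the exon bases of Lamp1 9.31% are shared with Grtp1 on the other strand. Mcoln1, the calcium channel TRPML1, rose by 0.97 ± 0.08, Lamp2 by 0.81 ± 0.10 and the tetraspanin Cd63 by 0.73 ± 0.12. Laptm5, a lysosomal protein of blood cells, rose least, by 0.55 ± 0.08, and under quantile normalization its change turned to -0.07 (adjusted p = 0.505).

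Of the pump subunits, 5 of 8 rose at least 2-fold. Among those 5, Atp6v1a (0.84) and Atp6v0a1 (0.82) were below 2-fold with library totals. The same held with quantile normalization (0.89 and 0.94). The V1 sector hydrolyses ATP in the cytosol, and the V0 sector carries protons through the membrane. In V1, Atp6v1b2, the catalytic head's B2 subunit, was at 254, 239, 232 and 294 CPM in untreated libraries and at 769.8, 608, 696 and 782 CPM after doxycycline, a rise of 1.49 ± 0.10 (adjusted p = 1.59e-06). Atp6v1a, its A subunit partner with the motif printed above, rose by 1.08 ± 0.10. Atp6v1h, subunit H of the stalk, was at 102, 87.6, 100.1 and 97.6 CPM against 109.9, 97.6, 106 and 114 CPM. Its groups overlapped and it did not pass (0.14 ± 0.06, adjusted p = 0.0799), but it passed with the block (0.0179) and without doxycycline replicate 2 (0.0281).

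In V0, Atp6v0c, the proteolipid that forms the rotor ring, was at 264, 221, 233 and 289 CPM in untreated libraries and at 648, 579, 612 and 702 CPM after doxycycline, a rise of 1.34 ± 0.09. Atp6v0a1, the a1 subunit, rose by 1.06 ± 0.08 and the accessory subunit Atp6ap1 by 0.68 ± 0.07. All pump subunits that passed were separate between groups.

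Subunit d of V0 is made by a pair of paralogs that changed to different extents. Atp6v0d1, the widely expressed form, was at 193, 165, 179 and 185 CPM in untreated libraries and at 207, 182, 184 and 220.4 CPM after doxycycline. Its groups overlapped, and its change of 0.13 ± 0.08 did not pass (adjusted p = 0.14; 0.0306 with the block). Atp6v0d2, at chr4:19876841-19922605 on GRCm38 and known from osteoclasts and macrophages, was at 1.31, 1.23, 1.44 and 2.44 CPM against 12.6, 13.7, 15.0 and 8.63 CPM. It rested on 28 to 52 reads per untreated library and 199 to 278 per doxycycline library.

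The rise of Atp6v0d2 was 2.98 ± 0.25, or 7.91-fold (adjusted p = 5.52e-06). It was 1.82 in pair 4, the only pair whose labels carry the prefix TRIMA1, and 3.26 to 3.47 in the other 3 pairs, labelled TRIMA2. Per exon length, Atp6v0d2 made up 0.447%, 0.493%, 0.526% and 0.864% of the reads on both paralogs in untreated libraries and 3.85%, 4.74%, 5.10% and 2.52% after doxycycline. Atp6v0d1 thus remained the main form in all 8 libraries. Of 6 osteoclast markers 3 were in the table, and Acp5 did not pass. Ctsk was at 0.0755 to 0.256 CPM in untreated libraries and at 0.626 to 1.84 CPM after doxycycline. Dcstamp was at 0.0208 to 0.368 CPM against 3.74 to 5.63 CPM. Both exceeded 1 CPM only in doxycycline libraries, and the table lacks genes that exceed it in fewer than 2 libraries. A rise was thus the only outcome open to them, and no conclusion is drawn from it.

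**Figure D4:**
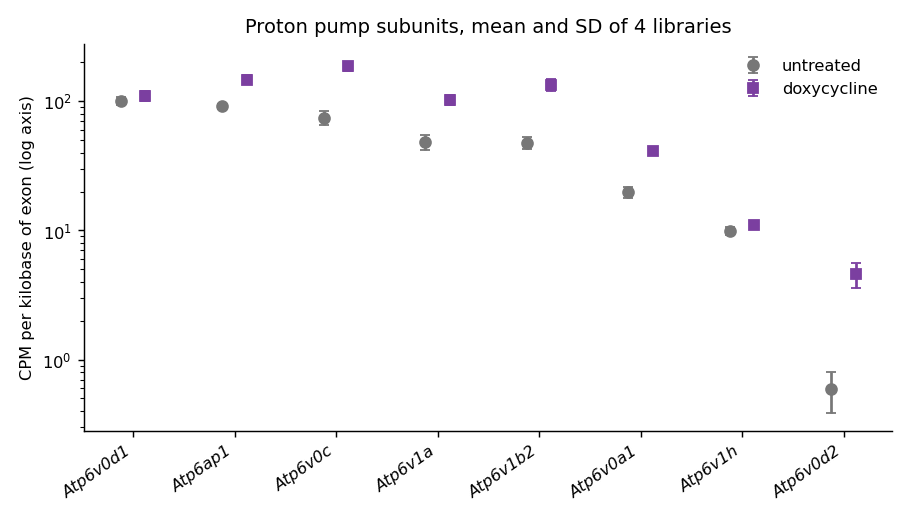
Level of the 8 pump subunits in CPM per kilobase of all annotated exons (vertical log axis), mean and SD of 4 untreated (circles) and 4 doxycycline (squares) libraries, ordered by untreated level. Atp6v0d1 and Atp6v1h show almost no gap between groups, and Atp6v0d2 is the lowest subunit in both, at 0.591 and 4.59.

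Most other lysosomal genes listed outside the 44 moved in a like direction. These lists were chosen with earlier results of these data known, so they are no independent support. Beside the counts of each list stand 31.3% of all genes that rose and 33.8% that fell. Of 23 other hydrolases and activators measured, 22 rose (median 0.86), with the smallest p for Pld3 (1.58 ± 0.09) and Naglu (1.00 ± 0.06), and Siae did not pass. Of 12 cathepsins, lysosomal proteases for the most part, 11 rose (median 1.44), with the smallest p for Ctsc (1.44 ± 0.07), Ctsd (2.69 ± 0.13) and Ctsb (2.74 ± 0.14). Among the 11, Ctsk exceeded 1 CPM only after doxycycline, so its rise was fixed by its presence in the table. Ctsg, a protease of neutrophil primary granules, fell by 2.43 on the log2 scale. Of 26 other membrane proteins 19 rose and 2 fell (median 0.47). Slc11a1, a metal transporter of phagosomes, rose by 2.84 ± 0.12, Gpnmb by 3.76 ± 0.16 and the chloride exchanger Clcn7 by 1.49 ± 0.08, while Lamp3 and Slc29a3 fell. With the block 4 of the 26 fell, against 36% of all genes.

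Of 11 other pump subunits 9 rose (median 0.48). Tcirg1, the a3 subunit, rose by 1.07 ± 0.07, Atp6v1g1 by 0.71 ± 0.06 and Atp6v1c1 by 1.07 ± 0.11, while Atp6v0a2 and Atp6v1g2 did not pass. Of 15 genes of delivery to the lysosome 9 rose and 1 fell (median 0.21): Vps18 rose by 0.44 ± 0.05, Gga1 by 0.45 ± 0.05 and Rab7 by 0.67 ± 0.08, while Gnptab, which builds the mannose 6-phosphate tag, fell by 0.24. Of the TFEB family, Tfeb rose from 26.0 ± 1.90 to 60.7 ± 2.35 CPM (mean ± SD, n = 4), Tfe3 from 54.7 ± 4.85 to 101 ± 9.87 CPM and Mitf from 10.1 ± 1.04 to 41.4 ± 3.58 CPM. Tfec, the fourth, fell by 0.44.

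In the transduction experiment, none of the 44 genes rose and none fell, as tested by limma, and limma voom on the recovered reads also gave 0. With limma, Id2 and Gm6175 were the only genes that passed, which is 0.0137% of the table. At an unadjusted p under 0.05 there were 2 of the 44 genes, both higher, against 1.26% of all genes higher and 2.45% in either direction. The median log2 change was 0.08 over the 44 genes and -0.03 over all genes, with 27 genes higher and 17 lower in Id2-GFP. Standard errors were wider here than in the other experiment, with a median of 0.219 against 0.089. Each of the 44 genes had an adjusted p of 0.998. The 44 genes took 1.06%, 1.098% and 0.865% of reads in control-GFP replicates 1 to 3 and 1.08%, 1.19% and 0.936% in Id2-GFP libraries, so number 3 was the lowest in both groups.

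Lgmn and Lipa were the 2 genes with an unadjusted p under 0.05, and are named here after their values were seen. Lgmn was at 18.0, 39.0 and 21.0 CPM in control-GFP and at 33.6, 82.4 and 41.2 CPM in Id2-GFP libraries. It was higher in each pair, by 0.90, 1.08 and 0.97, and pair 2 was the highest in both groups, which overlapped. The change was 0.98 ± 0.41, with an adjusted p of 0.998, or 0.0787 with the block. Lipa was at 207, 214 and 121 CPM in control-GFP and at 304, 331 and 246 CPM in Id2-GFP libraries. Its groups did not overlap, and its change was 0.74 ± 0.26 (adjusted p = 0.998; 0.299 with the block).

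Without control-GFP replicate 3, which stood apart, the change of Lgmn was 0.87 ± 0.45 and that of Lipa 0.47 ± 0.16, and the median over the 44 genes moved from 0.08 to -0.06. That library was the lowest of the 6 for 19 of the 44 genes and the highest for 8. Id2-GFP replicate 3 was the lowest for 16. The summed monocyte and macrophage markers, 8 of 10 in the table, came to 1036 CPM in control-GFP replicate 3. They came to 1196 to 1805 CPM in the others, and their part in these values was not tested. Leaving out both libraries of number 3 also gave none of the 44 genes, and a median of 0.05 over them.

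The groups did not overlap for 4 of the 44 genes: Lipa, Scarb2 and Atp6v0a1 were higher in Id2-GFP and Atp6v0c was lower. Over all genes of the table, 3.18% were separate and higher, and 3.77% separate and lower. Scarb2 was at 35.1, 33.4 and 36.0 CPM against 38.2, 40.1 and 44.2 CPM, a change of 0.23 ± 0.16. Atp6v0a1 was at 149, 166 and 109.8 CPM against 173, 207 and 172 CPM, a change of 0.39 ± 0.20. Atp6v0c was at 217, 222 and 223 CPM against 211, 210.6 and 164 CPM, a change of -0.19 ± 0.17. None of the 3 passed.

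Psap was at 501, 634 and 609 CPM in control-GFP and at 629, 1064 and 706 CPM in Id2-GFP libraries, a change of 0.43 ± 0.25. Cd68 was at 125, 116 and 136 CPM against 110.2, 156 and 105 CPM, a change of -0.04 ± 0.20. The most negative change was that of Cd63, at -0.43 ± 0.20. Atp6v0d2 was near the limit of the depth, with 10 to 26 reads per library over both groups, and its change was 0.16 ± 0.48. Among the other lysosomal lists none of the genes passed without the block, and with it Ctss, cathepsin S, did (1.32 ± 0.32, adjusted p = 0.0324).

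**Figure D5:**
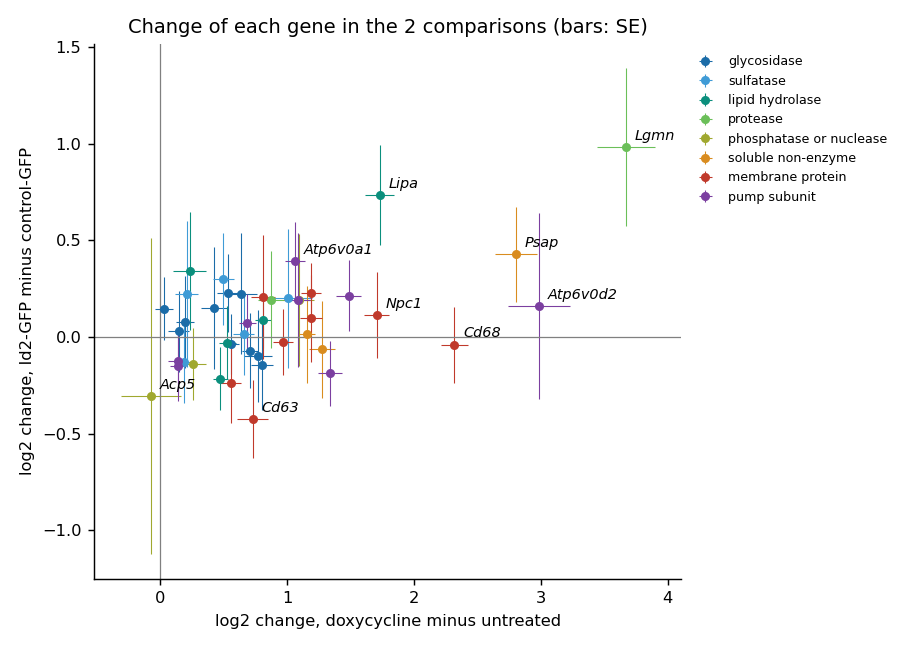
Log2 change of the 44 genes after doxycycline (horizontal axis) and with Id2 (vertical axis), bars showing SE, coloured by class. Lgmn, Lipa and Psap are at the upper right, Cd68 is near 0 on the vertical axis, and Acp5 is the only gene left of 0.

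The 2 comparisons shared no libraries. Across the 44 genes their changes had a Pearson r of 0.54 and a Spearman rho of 0.36, against 0.35 and 0.37 across the 12678 symbols in both tables. These are descriptions across genes, which are not independent replicates. Of the 43 genes with a positive change after doxycycline, 27 also had a positive value with Id2 and 16 a negative one. No fit joined the experiments, since their tables were normalized apart, so the difference between the 2 changes of a gene was not tested.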

How the data were processed

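RNA sequencing of 14 libraries was analysed from a pair of tables. The authors deposited log2 values, per the file headers. From the values these are log2 CPM of reads plus 0.5 over a scaled library size, since 100% of values gave whole reads within 0.01 read. Tools listed in the submitters' processing notes are HTSeq, TopHat2, limma and CASAVA 1.8.2, with the build mm10. No tabled gene exceeded 1 CPM in fewer than 2 libraries: the deposited tables lack low genes. Of 13419 entries in the doxycycline table, 13 repeated others and were dropped.

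Changes were tested with limma 3.58.1 in R 4.3.3 (eBayes with a trend, two-sided, Benjamini-Hochberg over all genes, passing at 0.05), within each table, and the script was tested on simulated data. Alternatives were a replicate block, genes over 5 CPM, library totals, quantile normalization, no variance trend, voom on recovered reads, and leaving out each library. Leaving out both libraries of number 3 was added after seeing the data. Python 3.11.15 and matplotlib 3.10.9 drew tables and plots. Exon lengths, over all annotated exons of a gene, and coordinates are from GENCODE M21 (GRCm38).

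Pair labels in the titles gave the doxycycline libraries their numbers. Deviations of same-numbered libraries correlated at 0.454 to 0.552 after doxycycline and at 0.472 to 0.581 with Id2, so the numbers pair the libraries. Nothing says that replicates came from separate animals, so p-values measure the spread between these samples, which may be technical. All members were named, with values per library for the 3 largest rises in each class and for those that did not pass. Of other lists, up to 3 genes a direction by smallest p were to be named, with the TFEB family and Tcirg1. A gene that this rule would name is not reported here. Members and lists were chosen with earlier results of these data known.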

Additional observations from a re-analysis of the deposited data

Results flagged for a closer look

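In 88 groups of 4 libraries (44 genes, untreated and doxycycline), 6 had a library far from the other 3, where chance alone gives about 1 in 20. Hexa after doxycycline was lowest in replicate 3, at 609.4 CPM against 698.1 to 700.2 CPM. Fuca1 in untreated cells was lowest in replicate 2, at 70.76 CPM against 83.93 to 85.37 CPM. Ids in untreated cells was highest in replicate 2, at 11.59 CPM against 7.479 to 7.814 CPM. Arsb after doxycycline was lowest in replicate 4, at 62.23 CPM against 79.45 to 83.49 CPM. Acp5 in untreated cells was highest in replicate 1, at 8.272 CPM against 4.353 to 4.658 CPM. Npc2 in untreated cells was highest in replicate 4, at 337.3 CPM against 294.1 to 298.8 CPM. The groups of 3 transduced libraries were too small for this rule.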

How the results depend on the processing

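Scaling by library totals in place of the deposited scaling moved the median change of all genes after doxycycline from -0.03 to -0.27 and that of the 44 genes from 0.75 to 0.51, so directions are relative to that shift. Under it 2702 of all genes rose and 6912 fell, against 4198 and 4535, and 33 of the 44 genes rose and 1 fell, Manba, at -0.21 (adjusted p = 0.00969). Gaa turned to -0.0483 under library totals and Laptm5 to -0.0696 under quantile normalization, where 32 of the 44 rose; the cause was not tested. Leaving out each library in turn gave 34 to 36 genes that rose and 0 that fell. With Id2, all settings gave 0 of the 44. Over all genes with Id2, leaving out each library gave 0 to 2 that rose and 0 to 1 that fell. With the replicate block, which pairs same-numbered libraries, 16 of all genes rose and 19 fell with Id2, and 41 of the 44 rose after doxycycline. The block changed no call of the 44 genes beyond Gusb, Arsb, Smpd1, Dnase2a, Atp6v0d1 and Atp6v1h. Depth limited Atp6v0d2, Acp5 and Ids most, with 28 to 267 reads per untreated library.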
